A study of Mus musculus with 27 samples.

Results

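Pi16 fibroblasts are the dermal fibroblasts of mouse back skin that carry Pi16 mRNA and little of the transcripts that mark 2 other kinds of fibroblast. A cell counted as a member when it had at least 500 genes, at least 1000 UMIs (unique molecular identifiers, each 1 captured mRNA molecule) and under 10% of UMIs from mitochondrial genes. It also needed at least 1% of UMIs from Col1a1, Col1a2, Col3a1 and Dcn, under 0.1% from Krt5 and Krt14, at least 2 UMIs of Pi16, at most 1 UMI of Thbs4, Cilp and Myoc together, and under 5 UMIs of Isg15, Ifit1, Ifit3 and Cxcl10 together. The rule found 4171 members among 28373 skin cells that passed the filters on quality, out of 32589 barcodes. Mouse 1 held 3364 of them and mouse 2 held 807. These measured values chose the members, so the levels of the rule's own genes are given below as a description.

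Fibroblasts make and remodel the collagen and elastic matrix of the dermis, and they differ by depth and by their distance from hair follicles and vessels. Fibroblasts with Pi16, a secreted protein named as a peptidase inhibitor, and Dpp4, a cell surface peptidase also called CD26, occur in the connective tissue around larger vessels of many organs and in the deep layers beneath the skin. In mouse skin and fat, Dpp4 fibroblasts are known as cells that can give rise to other fibroblasts and to fat cell precursors.

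The skin came from 2 wild-type mice at postnatal day 32, in anagen VI, the stage of the hair cycle in which the follicle is fully grown, with no treatment. Back skin was digested with collagenase and then trypsin, and the cells were sorted for lack of CD45, CD31, CD140a and CD117 before 10x Genomics capture, with 1 library per mouse. CD140a is the protein of Pdgfra, which fibroblasts express. The libraries go against a removal of such cells, since 6509 of 14458 and 6783 of 13915 kept cells met the rule's limits on collagen and keratin, and whether the sort ran as described was not tested. Pdgfra mRNA was at 239 and 368 CPM in the summed Pi16 fibroblasts of mouse 1 and mouse 2, the order in which paired values are given throughout, where CPM is the count of UMIs per 1e+06 UMIs of the sum, scaled by the trimmed mean of M values (TMM). After each cell was thinned to 3000 UMIs, 45.3% and 63.0% of them had a UMI of Pdgfra, against 3.11% and 4.83% of keratinocytes. The mRNA of the other sorted proteins was low in Pi16 fibroblasts, at 1.14 and 3.09 CPM for Ptprc (CD45), 1.63 and 2.10 CPM for Pecam1 (CD31) and 12.5 and 7.58 CPM for Kit (CD117). Kept cells had medians of 8869 and 10594 UMIs, and Pi16 fibroblasts had medians of 8666.5 and 11416 UMIs and 3065.5 and 3505 genes, with 31831142 and 10274099 UMIs in all. The matrices shared 62 barcodes, of which 0 were members in both.

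Pi16 lies on chromosome 17 from position 29317680 to 29330593 (GRCm38, GENCODE M21). The members of mouse 1 had a median of 12 Pi16 UMIs, with an interquartile range of 4 to 25 and a maximum of 131. Those of mouse 2 had a median of 4, with an interquartile range of 2 to 8 and a maximum of 71, so Pi16 mRNA per member was higher in mouse 1, at 1780.2 and 564 CPM. Just inside the threshold, 447 and 227 members had exactly 2 Pi16 UMIs, and just outside it, 678 and 681 cells that met the rest of the rule had 1. Members at 10 or more UMIs numbered 1904 and 170. At the other limits, 426 and 141 members had 1 UMI of Thbs4, Cilp and Myoc, while 144 and 60 cells with Pi16 were outside with 2. Keratinocytes (at least 1% of UMIs from Krt5 and Krt14 and under 1% from the collagen genes and Dcn, 205 and 150 cells), which should lack Pi16, had at least 1 UMI in 39.02% and 22.7% of cells and at least 2 in 9.76% and 1.33%, at medians of 6933 and 10152 UMIs. Among cells that met the limits on collagen and keratin, 70.8% and 41.7% had at least 2, so that the share of fibroblasts with Pi16 lay above the share of keratinocytes in both mice, while a single UMI said little in mouse 1.

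**Figure D1:**
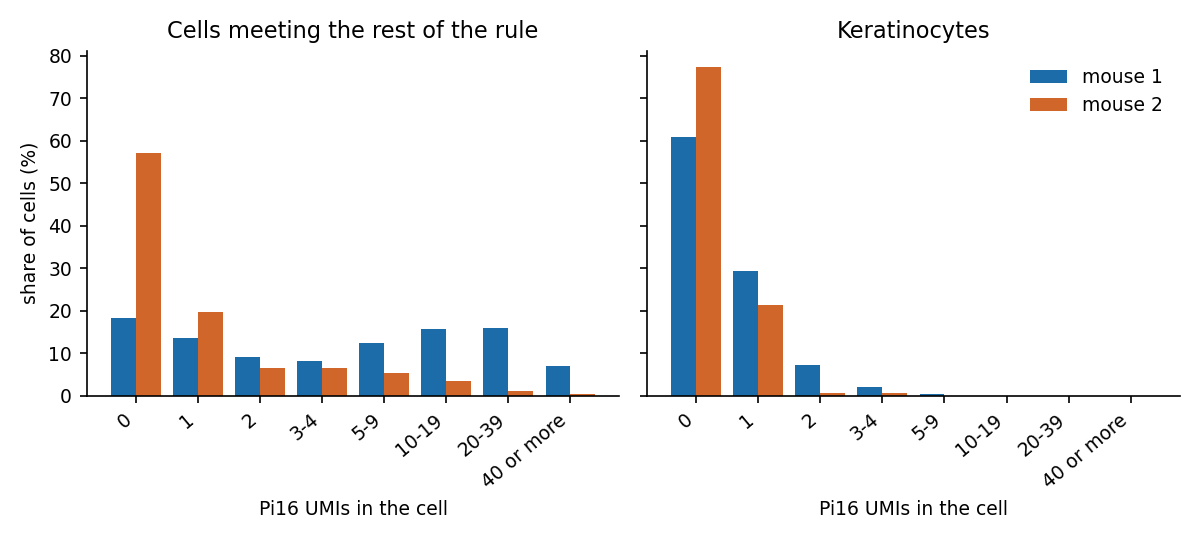
Share of cells (%) by number of Pi16 UMIs in the cell, for cells that met the rest of the rule (left) and for keratinocytes (right), with 1 bar per mouse. Cells of mouse 1 reach 40 or more UMIs on the left, and keratinocytes hold 0 or 1 UMI in most cells.

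Pi16 fibroblasts made up 23.3% of kept cells in mouse 1 (exact 95% interval 22.6% to 24.0%) and 5.80% in mouse 2 (5.42% to 6.20%), intervals that cover counting error only. Of the cells that met the limits on collagen and keratin, 6509 and 6783 in number, they were 51.7% and 11.9%. The mice therefore differed by far more than counting error, and with 1 group of 2 mice no test applies. The difference came together with another in the interferon class, the cells of that gate with at least 5 UMIs of Isg15, Ifit1, Ifit3 and Cxcl10, which were 9.48% in mouse 1 and 38.6% in mouse 2. Most cells of that class also carried Pi16, with at least 2 UMIs in 84.3% and 61.9% of them. Of all kept cells with at least 2 Pi16 UMIs, 5700 and 3070 in number, 59.0% and 26.3% were members, 9.12% and 52.8% fell into the interferon class, 12.8% and 13.1% into the Thbs4 class, and 17.6% and 6.55% had under 1% of collagen UMIs. When the gate asked for at least 5% collagen UMIs, Pi16 fibroblasts were 638 and 476 cells, or 4.41% and 3.42% of kept cells, beside 104 and 1318 cells of the interferon class. How far the limit on interferon genes set the lower share of mouse 2 was not tested beyond these counts.

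**Figure D2:**
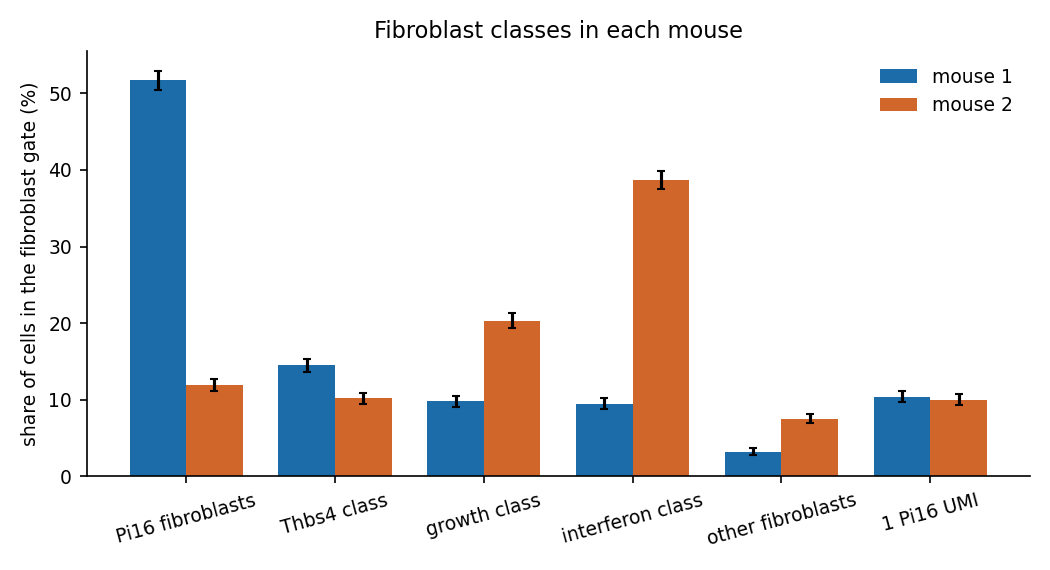
Share of cells within the limits on collagen and keratin (%), by class and mouse, with exact 95% intervals of counting error. Pi16 fibroblasts are the most frequent class in mouse 1 at 51.7%, and the interferon class is the most frequent in mouse 2 at 38.6%.

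The label was checked against Dpp4, Anxa3 and Limch1, which were named with the rule and are therefore described without p-values. They stayed among the genes tested below and count among the called genes where they passed, which is no independent evidence for the label. After thinning, Dpp4 was detected in 68.3% and 56.3%, against 6.22% and 6.90% of keratinocytes. Anxa3, a phospholipid binding annexin, was detected in 79.3% and 45.0%, against 18.7% and 7.59% of keratinocytes, and Limch1, a regulator of non-muscle myosin, in 35.3% and 16.6%, against 8.81% and 8.28%. Without thinning the members' shares were 85.0% and 77.3% for Dpp4, 89.5% and 65.9% for Anxa3, and 54.8% and 31.5% for Limch1. These markers were thus present above the keratinocyte share in both mice, Limch1 least. In both mice the summed levels of Dpp4, Anxa3 and Limch1 were higher in Pi16 fibroblasts than in the Thbs4 class, the growth class and other fibroblasts, which are defined below. Dpp4 was at 481 and 427 CPM in Pi16 fibroblasts, 213 and 269 CPM in the Thbs4 class, 126 and 144 CPM in other fibroblasts and 64.4 and 83.6 CPM in the growth class. Limch1 was at 175 and 79.3 CPM, 43.5 and 19.4 CPM, 19.01 and 25.7 CPM and 8.45 and 8.93 CPM in the same classes, and Anxa3 at 869.9 and 278 CPM, 416 and 141 CPM, 217 and 83.4 CPM and 130.3 and 57.6 CPM. The growth class was lowest for each gene in both mice, whereas other fibroblasts lay below the Thbs4 class for Limch1 in mouse 1 and above it in mouse 2. The interferon class, which held more Anxa3 in both mice (890.3 and 370.0 CPM) and more Dpp4 in mouse 2 (383 and 486 CPM), was not tested. Dcn, a small proteoglycan of the dermis that is part of the rule's collagen limit and so checks nothing, was at 5257 and 7215 CPM in Pi16 fibroblasts and 5981 and 5819 CPM in the growth class, overlapping levels.

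Markers of other cell types were present at low summed levels in Pi16 fibroblasts. The 10 keratinocyte markers summed to 825 and 581 CPM, the 7 melanocyte markers to 283 and 362 CPM, the 8 skeletal muscle markers to 168 and 99.1 CPM, and the 7 Schwann cell markers to 52.3 and 116 CPM. The 10 endothelial markers summed to 40.6 and 34.9 CPM, the 10 immune markers to 28.7 and 44.4 CPM, the 7 mural markers outside the rules to 56.0 and 78.9 CPM, the 8 adipocyte markers to 29.3 and 76.0 CPM, the 4 tendon markers to 13.6 and 52.9 CPM, and the 6 mesothelial markers to 3.36 and 5.35 CPM. Lep was at 0 in both mice, Tie1, Foxd3, Msln and Lrrn4 were at 0 in mouse 2, and all other markers of these lists had counts. Scrublet called 8.12% and 3.72% of Pi16 fibroblasts doublets, against 5.76% and 2.21% of all kept cells. The part of these cells and of free RNA in the levels below was not tested.

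The markers were graded among the members. In cells grouped by their Pi16 UMIs, where CPM is not TMM-scaled, Dpp4 was at 138 and 224 CPM in members with 2 Pi16 UMIs and at 709 and 622 CPM in members with 20 or more. Anxa3 went from 273 and 139 CPM to 1254 and 589 CPM over the same range, and Limch1 from 28.3 and 37.1 CPM to 279 and 166 CPM. Smpd3, a neutral sphingomyelinase, went from 149 and 150 CPM to 1408 and 818 CPM. These genes were higher in every step in mouse 1, and in mouse 2 in every step but one, since Dpp4 was at 548 CPM with 5 to 9 Pi16 UMIs and 533 CPM with 10 to 19. Mfap5, a microfibril protein, went from 783 and 813 CPM to 3123 and 2459 CPM, and Igfbp5, which binds insulin-like growth factors, from 420 and 300.5 CPM to 2469 and 1182 CPM. Ly6a, the surface protein SCA1, went from 1334 and 1290 CPM to 2476 and 3232 CPM. In the opposite direction, Col15a1, a collagen of basement membrane zones, went from 366 and 360 CPM to 53.8 and 62.7 CPM, and Postn, a matrix protein of growing tissue that is a gene of the growth class rule, from 2760 and 3353 CPM to 933 and 958 CPM. Cells with 1 Pi16 UMI, which were not members, had 92.2 and 141 CPM of Dpp4 and 446 and 421 CPM of Col15a1, against 138 and 224 CPM and 366 and 360 CPM in members with 2. Median depth along this range lay between 7925 and 9879 UMIs in mouse 1 and between 10526 and 13737 UMIs in mouse 2. The threshold of 2 UMIs thus cut through a range and was not a gap between groups of cells.

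**Figure D3:**
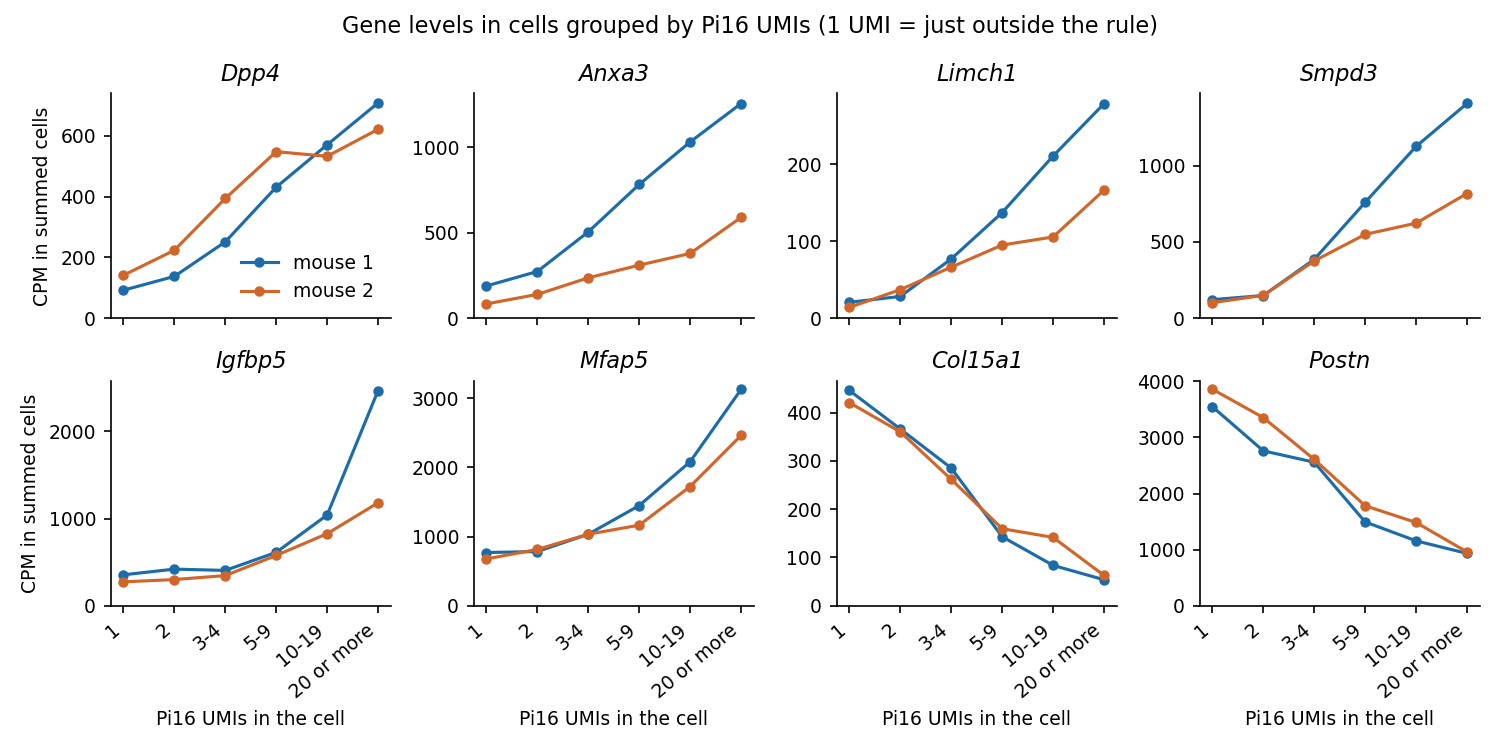
Level (CPM of summed cells, linear axis from 0) of 8 genes in cells grouped by their Pi16 UMIs, with 1 line per mouse. Dpp4, Anxa3, Limch1, Smpd3, Igfbp5 and Mfap5 are highest, and Col15a1 and Postn lowest, in cells with 20 or more Pi16 UMIs in both mice.

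The markers also occurred together in single cells. Of the thinned members, 29.1% of 3246 in mouse 1 and 10.6% of 791 in mouse 2 had all of Dpp4, Anxa3 and Limch1, and 14.2% and 34.1% had none of them. Anxa3 was detected in 91.5% and 65.4% of members with Dpp4 and in 53.0% and 18.8% of members without it. Limch1 was detected in 44.2% and 24.9% of members with Dpp4 and in 16.0% and 5.78% of members without it. Cells of 1 mouse share a library, so these shares carry no test.

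With mitochondrial and ribosomal genes left out, the most abundant transcripts of Pi16 fibroblasts were Gm42418, at 51104 and 69214 CPM, and Malat1, at 24585 and 25276 CPM. Next came mRNAs of the dermal matrix, with Col3a1 at 15645 and 22771 CPM, Col1a2 at 11350.0 and 21039 CPM and Sparc, a collagen binding protein, at 10001 and 14457 CPM. Col3a1 and Col1a2 are part of the rule's collagen limit. All collagen genes of the rule and Dcn together took a median of 3.50% and 5.59% of a member's UMIs. Igfbp6 was at 3182 and 2235 CPM, Fbn1, the main microfibril protein fibrillin-1, at 2692 and 2136 CPM, Fn1, fibronectin, at 2337 and 2340.5 CPM, Clec3b, tetranectin, at 2457 and 1839.6 CPM and Ly6a at 2065 and 2123 CPM. Cd34, a surface sialomucin, was at 672 and 602 CPM. Apoe, a lipid carrier, was at 877 and 4070.2 CPM, the widest difference between the mice among the 30 most abundant genes so ranked.

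The members were not uniform. Leiden clustering of the 4171 members, with the genes of the rules, mitochondrial and ribosomal genes left out, gave 8 clusters, which are described by their leading genes only. Cluster 2 held 32.6% and 38.04% of the members of each mouse and had the highest median of Pi16 UMIs in mouse 1, at 21.5. It was led by Adamts16, a secreted metalloprotease, Rgs6, a regulator of G protein signaling, and Dact2, a WNT pathway modulator, with Dpp4 at 898 and 891 CPM and Limch1 at 405 and 179 CPM. Cluster 1 held 34.6% of the members of mouse 1 and 2.60% of those of mouse 2, 21 cells, so that the cluster cannot be told apart from the animal or its library. Its leading genes included Ccn5, Tgm2, Il31ra, Pgr and Gadd45g, and its Dpp4 level was 555 and 684 CPM.

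Cluster 4 held 13.3% and 30.4% of members and was led by Cdh4, a cadherin, Coch, Tgfbi, Mgp, an inhibitor of calcification, Lepr, the leptin receptor, Cyp26b1, an enzyme that breaks down retinoic acid, and Tnmd, a tendon marker. Its Pi16 level was 835 and 518 CPM, its Dpp4 level 169 and 158 CPM, and its Limch1 level 22.3 and 13.4 CPM. Cluster 6 held 6.39% and 13.0%, had a median of 2 Pi16 UMIs in both mice, and was led by genes that also separated the growth class from Pi16 fibroblasts, among them St6galnac3, Map2, Gramd1b and Frem1, with Postn at 5706 and 6554 CPM and Dpp4 at 81.98 and 80.7 CPM. Cluster 6 was thus far below clusters 1 and 2 in Dpp4 in both mice.

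Smaller clusters held cells with the mRNA of another cell type. Cluster 5, with 8.95% and 10.5% of members, was led by histone and mitosis genes (Hist1h1b, Ube2c, Top2a) and Krt25, a keratin of the inner root sheath, at the highest medians of 15859 and 17677 UMIs, and Scrublet called 78.1% and 29.4% of its cells doublets. Cluster 8, with 22 and 6 cells, was led by genes of the dermal papilla (Wif1, Sostdc1, Rspo3, Corin), and 81.8% and 66.7% of its cells were called doublets. Cluster 3, with 10 and 2 cells, was led by muscle genes (Mylpf, Acta1, Ckm). Cluster 7, with 3.24% and 4.46%, was led by hemoglobin genes at low medians of 3432 and 4891 UMIs. Counts of called genes without doublets are given in the closing section.

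Pi16 fibroblasts were compared with 3 other classes of the same gate, each by its UMIs summed per mouse. The Thbs4 class (944 and 691 cells) had at least 2 UMIs of Thbs4, Cilp and Myoc. The growth class (638 and 1378 cells) had no Pi16 UMI and at least 5 of H19, Adam12 and Postn, and other fibroblasts (212 and 511 cells) had no Pi16 UMI and fewer than 5 of these. Cells of both latter kinds with 5 or more UMIs of the mural genes Acta2, Rgs5 and Myh11 were left out. Calls came from edgeR's quasi-likelihood test with the mouse as a block over 15070 genes, and required a change of more than 1 on the log2 scale in either direction at a p under 0.01 after Benjamini-Hochberg adjustment. The 20 genes that define the classes were left out. The comparisons share the sums of the Pi16 fibroblasts, and all classes of a mouse come from 1 library. With the block, the p-values measure how far differences between classes disagreed between these 2 mice, pooled over all classes of the fit. They do not measure the spread between the mice themselves. Fold changes are log2 of Pi16 fibroblasts over the other class, with the standard error (SE) from the fit. Without the block 9, 67 and 4 genes were called against the Thbs4 class, the growth class and other fibroblasts.

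**Figure D4:**
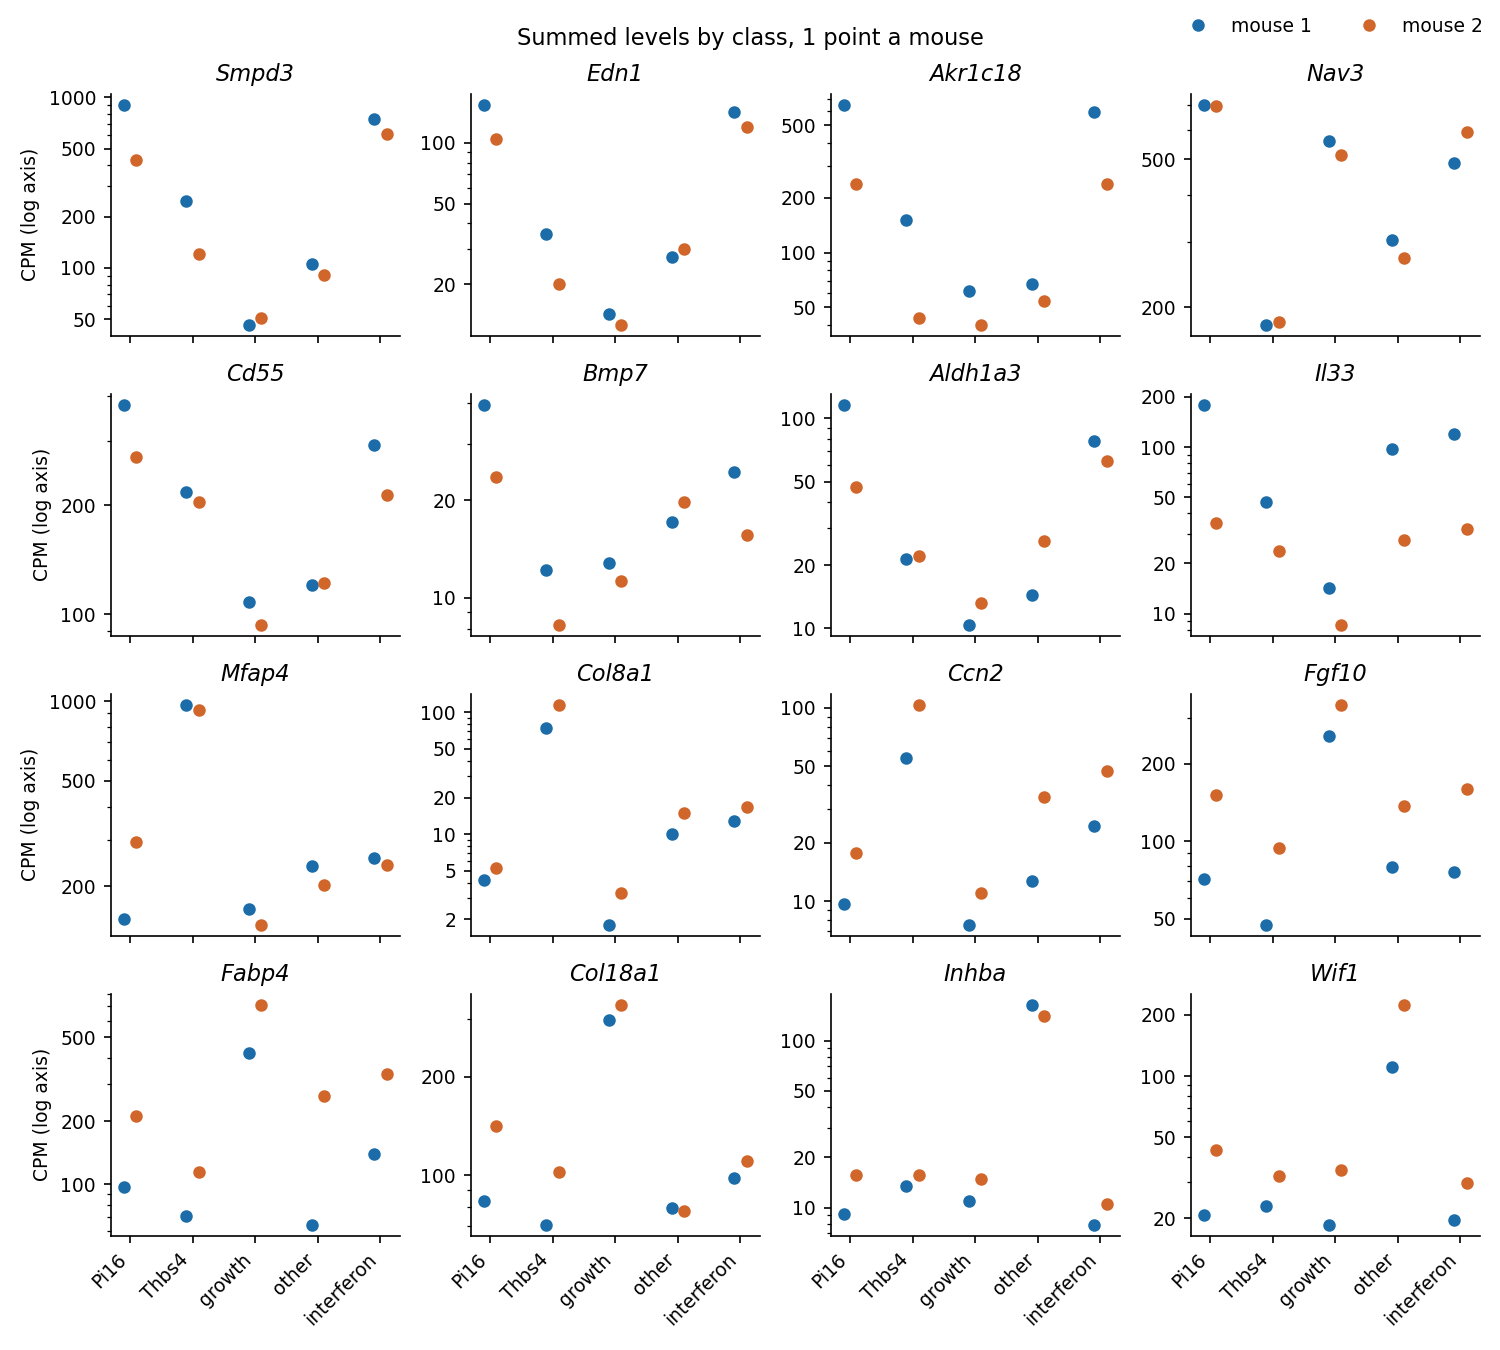
Summed level (TMM-scaled CPM, log axis) of 16 genes in 5 classes, with 1 point per mouse. Smpd3, Edn1 and Akr1c18 are higher in Pi16 fibroblasts and the interferon class than in the Thbs4, growth and other classes in each mouse, while Mfap4, Col8a1 and Ccn2 peak in the Thbs4 class, Fgf10, Fabp4 and Col18a1 in the growth class, and Inhba and Wif1 in other fibroblasts.

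Against the Thbs4 class, Pi16 fibroblasts expressed more of the vasoactive peptide gene Edn1 and of the enzyme genes Akr1c18, Smpd3 and Pla1a, and less of the matrix genes Col8a1, Hmcn2 and Mfap4. The Thbs4 class had the fewest called genes of the 3 classes compared. The interferon class was not compared by a test, and its Smpd3 was at 741 and 611 CPM. Of 15070 genes, 179 (1.19%) were called, 72 higher (0.478%) and 107 lower (0.71%) in Pi16 fibroblasts. Edn1, endothelin-1, was at 155 and 105 CPM against 35.3 and 19.95 CPM in the Thbs4 class (log2 fold change 2.24 ± 0.15, adjusted p = 5.0e-05). Akr1c18, which inactivates progesterone, was at 649 and 238 CPM against 152 and 43.5 CPM in the Thbs4 class (log2 fold change 2.23 ± 0.26, adjusted p = 0.0016). Both genes were higher in each mouse than in either mouse of the Thbs4 class, which the rule for naming genes required. Smpd3 was at 906 and 429 CPM against 246 and 121 CPM in the Thbs4 class (log2 fold change 1.86 ± 0.25, adjusted p = 0.0031). Nav3, a microtubule binding protein, was at 701 and 694 CPM against 179.7 and 183 CPM in the Thbs4 class (log2 fold change 1.94 ± 0.12, adjusted p = 3.4e-05) and was nearly even between the mice. Beside the marker Limch1, the rule for naming also picked the protocadherin Pcdh11x, the calcineurin inhibitor Rcan2, the guidance cue Sema3e, the cytokine Il18 and the phospholipase Pla1a among those higher, these 5 with log2 fold changes between 1.44 and 1.96.

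Among genes lower in Pi16 fibroblasts than in the Thbs4 class, Col8a1, a short-chain collagen of vessel walls, was at 4.19 and 5.29 CPM against 74.4 and 115 CPM in the Thbs4 class (log2 fold change -4.27 ± 0.13, adjusted p = 3.0e-07). Hmcn2, a large matrix protein of the hemicentin family, was at 17.5 and 24.2 CPM against 212 and 283 CPM in the Thbs4 class (log2 fold change -3.57 ± 0.12, adjusted p = 5.7e-07). Col8a1 and Hmcn2 were more than 10 times lower in Pi16 fibroblasts of both mice. Ccn2, connective tissue growth factor, was at 9.65 and 17.7 CPM against 54.8 and 104 CPM in the Thbs4 class (log2 fold change -2.53 ± 0.13, adjusted p = 9.6e-06). Gfra1, a receptor for glial cell line-derived neurotrophic factor, was at 9.25 and 6.59 CPM against 71.4 and 39.2 CPM in the Thbs4 class (log2 fold change -2.79 ± 0.21, adjusted p = 9.3e-05), and Ednrb, an endothelin receptor, at 7.15 and 6.59 CPM against 20.4 and 82.1 CPM in the Thbs4 class (log2 fold change -2.53 ± 0.42, adjusted p = 0.0092). Edn1 was thus higher, and its receptor gene Ednrb lower, in Pi16 fibroblasts. Frmpd4, Kcnip4, Pappa2, Plxna4 and Col11a1 were the other genes named by the rule among those lower, with log2 fold changes between -3.26 and -2.22.

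By groups, 3 of 22 elastic fiber and microfibril genes were lower than in the Thbs4 class and 1 was higher. Among all genes 0.71% were lower and 0.478% higher. The median log2 fold change of the elastic fiber list was -0.23 beside 0.01 over all genes. Mfap4, a microfibril-associated protein that binds elastin, was at 150.1 and 293 CPM against 970.4 and 924 CPM in the Thbs4 class (log2 fold change -2.12 ± 0.25, adjusted p = 0.0017). Ltbp4, which tethers latent TGF-beta to microfibrils, was at 206 and 213 CPM against 531 and 486 CPM in the Thbs4 class (log2 fold change -1.28 ± 0.17, adjusted p = 0.0025), and Lox, which crosslinks elastin and collagen, at 106 and 141 CPM against 237 and 291 CPM in the Thbs4 class (log2 fold change -1.10 ± 0.14, adjusted p = 0.0022). Efemp1, fibulin-3, was the one higher, at 559 and 688 CPM against 188 and 293 CPM in the Thbs4 class (log2 fold change 1.39 ± 0.15, adjusted p = 9.6e-04). Lower also were 3 of 27 proteoglycan and glycoprotein genes, namely Prg4, Podn and Sparcl1, and 2 of 23 collagen genes, Col8a1 and Col11a1. Of 32 adventitial-type markers, 4 were higher (Dact2, Smpd3, Efhd1 and Wnt2) and none lower, with a median of 0.50, and 2 were higher with at least 5% collagen UMIs. Cd34, Ly6a and Clec3b of that list did not pass, at log2 fold change 0.15 ± 0.10, adjusted p = 0.65 for Cd34, log2 fold change -0.08 ± 0.15, adjusted p = 0.95 for Ly6a and log2 fold change 0.05 ± 0.10, adjusted p = 0.96 for Clec3b, all within 1 of no change on the log2 scale. The Thbs4 class also held Pi16, with at least 2 UMIs in 77.0% and 58.0% of its cells. None of the 20 cell cycle genes or of the 21 genes of the dissociation response was called in edgeR in any comparison. DESeq2 called none either, and 0 to 3 cell cycle genes and 5 to 6 response genes had an unadjusted p under 0.05. Of all genes, edgeR called 1.19%, 4.35% and 2.08% against the Thbs4 class, the growth class and other fibroblasts. Lists this short would hold few or no calls at those shares.

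The growth class differed most from Pi16 fibroblasts, which expressed more of 23 of 32 adventitial-type markers, 9 of 37 BMP and TGF-beta genes and 5 of 22 elastic fiber genes, and less of 7 of 23 collagen genes and 3 of 21 adipocyte lineage genes. Of 15070 genes, 656 (4.35%) were called, 374 higher (2.48%) and 282 lower (1.87%) in Pi16 fibroblasts. Smpd3 was at 906 and 429 CPM against 46.6 and 50.7 CPM in the growth class (log2 fold change 3.66 ± 0.28, adjusted p = 3.7e-05). Il18 was at 77.7 and 52.3 CPM against 4.53 and 6.99 CPM in the growth class (log2 fold change 3.35 ± 0.22, adjusted p = 1.8e-05), and Edn1 at 155 and 105 CPM against 14.2 and 12.6 CPM in the growth class (log2 fold change 3.23 ± 0.17, adjusted p = 8.6e-06). These genes were more than 5 times higher in Pi16 fibroblasts of each mouse. Il33, an alarm cytokine stored in the nucleus, was at 179.9 and 35.2 CPM against 14.2 and 8.58 CPM in the growth class (log2 fold change 2.88 ± 0.32, adjusted p = 3.0e-04), with a wide gap between the mice in the Pi16 fibroblasts. Aldh1a3, which makes retinoic acid, was at 116 and 47.3 CPM against 10.4 and 13.2 CPM in the growth class (log2 fold change 2.67 ± 0.34, adjusted p = 6.1e-04). Beside the markers Dpp4, Anxa3 and Limch1, the rule also named Akr1c18 and Pcdh11x among those higher, with log2 fold changes of 2.96 and 2.51.

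Lower than in the growth class were St6galnac3, a sialyltransferase, at 28.9 and 60.5 CPM against 212 and 334 CPM in the growth class (log2 fold change -2.67 ± 0.11, adjusted p = 6.1e-06), and Hc, complement component 5, at 9.10 and 9.38 CPM against 60.6 and 51.9 CPM in the growth class (log2 fold change -2.60 ± 0.14, adjusted p = 8.6e-06). Col13a1, a transmembrane collagen, was at 9.68 and 18.1 CPM against 58.1 and 80.1 CPM in the growth class (log2 fold change -2.37 ± 0.15, adjusted p = 1.8e-05). Frem1, a basement membrane protein, was at 33.7 and 57.1 CPM against 161 and 233 CPM in the growth class (log2 fold change -2.14 ± 0.16, adjusted p = 3.3e-05). In each of these genes both mice of the growth class lay above both mice of the Pi16 fibroblasts, which the rule for naming required. Dchs2, Pde11a, Map2, Cacna1c, Pla2g7 and Gramd1b were the other genes named by the rule among those lower, with log2 fold changes between -2.21 and -2.08.

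Of the 32 adventitial-type markers tested, 23 were higher than in the growth class and none lower, against 2.48% and 1.87% of all genes. Their median was 1.46 beside -0.01 over all genes. This list was drawn up with earlier results of these cells known, and is no independent evidence of its direction. Cd55, which protects cells from complement, was at 379 and 271 CPM against 108 and 93.6 CPM in the growth class (log2 fold change 1.68 ± 0.13, adjusted p = 3.9e-05). Ackr3, a scavenger of the chemokine Cxcl12, was at 432 and 225 CPM against 92.3 and 58.2 CPM in the growth class (log2 fold change 2.09 ± 0.13, adjusted p = 1.8e-05). Sema3c, a semaphorin, was at 714 and 613 CPM against 205 and 191 CPM in the growth class (log2 fold change 1.75 ± 0.15, adjusted p = 7.0e-05). Procr, the protein C receptor, was at 37.4 and 45.4 CPM against 9.50 and 10.98 CPM in the growth class (log2 fold change 2.05 ± 0.16, adjusted p = 4.9e-05). These genes varied less between the mice than between the classes. Cd34 was at 672 and 602 CPM against 293 and 222 CPM in the growth class (log2 fold change 1.32 ± 0.10, adjusted p = 3.7e-05) and Ly6a at 2065 and 2123 CPM against 872 and 742 CPM in the growth class (log2 fold change 1.38 ± 0.16, adjusted p = 3.3e-04), the genes of the surface proteins CD34 and SCA1 by which skin cells are often sorted.

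Matrix genes divided by kind, beside 2.48% of all genes higher and 1.87% lower than in the growth class. Of 22 elastic fiber and microfibril genes, 5 were higher than in the growth class (Fbn1, Fbln1, Eln, Emilin2 and Mfap5) and none lower, with a median of 0.33. All of these calls were lost when cells had to hold at least 5% collagen UMIs, where 0 of the 22 were called. Fbn1 was at 2692 and 2136 CPM against 1039 and 977 CPM in the growth class (log2 fold change 1.25 ± 0.11, adjusted p = 8.5e-05), and Eln, elastin, at 1075 and 597 CPM against 358 and 374 CPM in the growth class (log2 fold change 1.15 ± 0.20, adjusted p = 0.0043). Of 23 collagen genes outside the rule, 7 were lower (Col13a1, Col26a1, Col7a1, Col18a1, Col15a1, Col23a1 and Col4a2) and 1 higher (Col4a5), with a median of -0.58. Col18a1, whose end is endostatin, was at 83.2 and 141 CPM against 298 and 332 CPM in the growth class (log2 fold change -1.53 ± 0.16, adjusted p = 1.7e-04), and Col15a1 at 148 and 241 CPM against 495 and 497 CPM in the growth class (log2 fold change -1.37 ± 0.21, adjusted p = 0.0019). Several of these collagens belong to basement membranes or to cell surfaces rather than to fibrils. Of 33 protease and inhibitor genes, 6 were higher, among them Timp3 and Timp2, inhibitors of metalloproteases, and Plau, urokinase, and 4 lower, all of the ADAMTS family. Timp3 was at 755 and 318 CPM against 209 and 127 CPM in the growth class (log2 fold change 1.56 ± 0.25, adjusted p = 0.0023), and Adamts9 at 31.4 and 44.8 CPM against 72.6 and 95.03 CPM in the growth class (log2 fold change -1.15 ± 0.09, adjusted p = 5.7e-05). Of 27 proteoglycan and glycoprotein genes 2 were higher (Ogn and Ecm1) and 1 lower (Tnc).

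Signals also differed from the growth class. Of 37 BMP and TGF-beta genes, 9 were higher and none lower (2.48% and 1.87% of all genes tested), with a median of 0.43. They were the ligand genes Bmp2, Bmp3, Bmp4, Bmp6, Bmp7 and Tgfb2, the BMP antagonist genes Chrdl1 and Nbl1, and Tgfbi, a matrix protein induced by TGF-beta. Bmp4 was at 26.8 and 27.04 CPM against 10.9 and 10.98 CPM in the growth class (log2 fold change 1.30 ± 0.13, adjusted p = 1.7e-04). Bmp7 was at 39.7 and 23.6 CPM against 12.8 and 11.2 CPM in the growth class (log2 fold change 1.34 ± 0.17, adjusted p = 5.9e-04), and Chrdl1 at 155 and 115 CPM against 56.1 and 36.6 CPM in the growth class (log2 fold change 1.55 ± 0.19, adjusted p = 5.6e-04). Ligands and antagonists of BMP were thus both higher. Of 48 growth factor and binding protein genes, 11 were higher and 8 lower. Fgf18, a factor that restrains hair growth, was at 28.2 and 13.8 CPM against 5.13 and 4.29 CPM in the growth class (log2 fold change 2.08 ± 0.20, adjusted p = 1.4e-04). Fgf10, at 71.5 and 151 CPM against 256 and 339 CPM in the growth class (log2 fold change -1.51 ± 0.15, adjusted p = 1.6e-04), Hgf, at 15.6 and 25.1 CPM against 51.3 and 90.4 CPM in the growth class (log2 fold change -1.78 ± 0.11, adjusted p = 1.4e-05), and Ptn, pleiotrophin, at 313 and 339.9 CPM against 1149 and 796 CPM in the growth class (log2 fold change -1.57 ± 0.16, adjusted p = 1.9e-04), were lower. Fgf10, Hgf and Ptn were lower in each mouse than in either mouse of the growth class. With at least 5% collagen UMIs, 20 of 83 named genes lost their call against the growth class, Fgf10 and Ptn among them.

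Of 40 chemokine, cytokine and complement genes, 7 were higher than in the growth class and 1, Il34, was lower. The median was 0.42, and of all genes 2.48% were higher and 1.87% lower. Ackr2, a decoy receptor of inflammatory chemokines, was at 13.6 and 11.4 CPM against 0.905 and 1.47 CPM in the growth class (log2 fold change 3.25 ± 0.28, adjusted p = 7.5e-05). Of 21 adipocyte lineage genes, 3 were lower and 1, Bmp7, was higher. Pparg, the regulator of fat cell formation, was at 17.5 and 37.4 CPM against 81.8 and 90.6 CPM in the growth class (log2 fold change -1.75 ± 0.20, adjusted p = 2.9e-04). Fabp4, a fatty acid carrier, was at 97.4 and 211 CPM against 422 and 713 CPM in the growth class (log2 fold change -1.94 ± 0.23, adjusted p = 3.8e-04), and Cd36, a fatty acid receptor, at 14.9 and 44.2 CPM against 63.2 and 116 CPM in the growth class (log2 fold change -1.72 ± 0.16, adjusted p = 1.1e-04). The 8 adipocyte markers summed to 180 and 346 CPM in the growth class against 29.3 and 76.0 CPM in Pi16 fibroblasts, and their part in these differences was not tested. Of 10 endothelial markers Kdr, and of 7 Schwann cell markers Mbp, were higher in Pi16 fibroblasts, as were the mural markers Kcnj8 and Abcc9 of 6 tested. Cells rich in the mural genes Acta2, Rgs5 and Myh11 had been left out of the growth class but not of Pi16 fibroblasts. The part of this limit in the calls of Kcnj8 and Abcc9 was not tested. Mbp was at 32.8 and 26.1 CPM against 5.43 and 6.87 CPM in the growth class (log2 fold change 2.24 ± 0.19, adjusted p = 7.1e-05).

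Of 22 interferon-induced genes that were not in the rule, 3 were higher in Pi16 fibroblasts than in the growth class (Ifi27l2a, Irf7 and Bst2) and 1, Irf7, than in the Thbs4 class, none lower, with medians of 0.76 and 0.40. Over all genes 2.48% and 0.478% were higher in these comparisons. Irf7, a transcription factor of the interferon response, was at 26.5 and 55.5 CPM against 13.6 and 18.8 CPM in the growth class (log2 fold change 1.33 ± 0.14, adjusted p = 2.4e-04), and 13.2 and 24.9 CPM in the Thbs4 class. All classes but the interferon class had under 5 UMIs of the 4 interferon genes of the rule.

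Other fibroblasts were the shallowest class, with medians of 4375 and 1693 UMIs, and held more mRNA of several other cell types than Pi16 fibroblasts. Their immune markers summed to 125 and 205 CPM, endothelial markers to 143 and 119 CPM, Schwann cell markers to 68.1 and 181 CPM, and melanocyte markers to 311 and 1059 CPM. Skeletal muscle markers, at 59.8 and 1407 CPM, and adipocyte markers, at 5.52 and 482 CPM, were lower than in Pi16 fibroblasts in mouse 1 and higher in mouse 2. Tendon markers, at 23.0 and 16.6 CPM, were higher in mouse 1 and lower in mouse 2. Of 15070 genes, 314 (2.08%) were called, 129 higher (0.856%) and 185 lower (1.23%) in Pi16 fibroblasts. Higher was Ptgis, prostacyclin synthase, at 92.6 and 74.9 CPM against 4.53 and 14.4 CPM in other fibroblasts (log2 fold change 2.94 ± 0.31, adjusted p = 6.1e-04). Cthrc1, a secreted protein of collagen-producing cells, was at 124 and 77.5 CPM against 21.7 and 17.6 CPM in other fibroblasts (log2 fold change 2.31 ± 0.30, adjusted p = 0.002). Sfrp2, a secreted WNT modulator, was at 249 and 374 CPM against 57.03 and 82.8 CPM in other fibroblasts (log2 fold change 2.13 ± 0.21, adjusted p = 4.6e-04). All these genes were higher in both mice, which the rule for naming required. Sfrp2 did not differ by the test from the Thbs4 class (log2 fold change -0.40 ± 0.18, adjusted p = 0.35) or the growth class (log2 fold change 0.12 ± 0.17, adjusted p = 0.75). Akr1c18, Smpd3, Lrrn4cl, Pla1a, Edn1 and Efhd1 were the other genes named by the rule among those higher, with log2 fold changes between 2.11 and 2.68. Smpd3, Edn1 and Akr1c18, with the marker Limch1, were named by the rule in all comparisons.

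Lower than in other fibroblasts were genes of the dermal papilla, the fibroblast cluster at the base of the follicle, among them the activin gene Inhba, at 9.10 and 15.8 CPM against 164 and 141 CPM in other fibroblasts (log2 fold change -3.68 ± 0.21, adjusted p = 1.0e-04), the BMP and WNT antagonist Sostdc1, at 10.8 and 8.08 CPM against 74.2 and 174 CPM in other fibroblasts (log2 fold change -3.61 ± 0.30, adjusted p = 2.2e-04), and the WNT amplifier Rspo3, at 13.5 and 14.5 CPM against 112 and 89.3 CPM in other fibroblasts (log2 fold change -2.81 ± 0.24, adjusted p = 2.6e-04). Wif1, a WNT inhibitor, was at 20.7 and 43.1 CPM against 111 and 224 CPM in other fibroblasts (log2 fold change -2.43 ± 0.15, adjusted p = 1.0e-04), and Corin, a protease of the dermal papilla, at 16.6 and 17.9 CPM against 85.99 and 100.5 CPM in other fibroblasts (log2 fold change -2.41 ± 0.19, adjusted p = 2.1e-04). Of 12 dermal papilla genes 5 were lower (Rspo3, Corin, Hhip, Trps1 and Ptch1) and none higher, with a median of -1.58 beside 0.01 over all genes. The shares of all genes were 1.23% lower and 0.856% higher. When cells had to hold at least 5% collagen UMIs, Rspo3, Corin, Sostdc1 and Wif1 turned to the other direction without a call and Inhba lost its call. That limit left 638 and 476 Pi16 fibroblasts and 68 and 71 other fibroblasts, and the part of cells low in collagen in these differences was not tested. The rule also named Stac, Tmem176a, Rxfp1 and Tmem176b among those lower. Endothelial, immune and Schwann cell markers were lower as well, with 2 of 10, 2 of 9 and 3 of 7 called, and their part in these differences was not tested.

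Of 32 adventitial-type markers, 16 were higher than in other fibroblasts and none lower, with a median of 1.10, and 9 were higher with at least 5% collagen UMIs. Among all genes 0.856% were higher and 1.23% lower in the main comparison. Mfap5 was at 1972 and 1235 CPM against 442 and 402 CPM in other fibroblasts (log2 fold change 1.89 ± 0.16, adjusted p = 2.4e-04). Cd248, endosialin, was at 738 and 544 CPM against 326 and 181 CPM in other fibroblasts (log2 fold change 1.37 ± 0.14, adjusted p = 5.0e-04), and Fn1 at 2337 and 2340.5 CPM against 1159.5 and 924 CPM in other fibroblasts (log2 fold change 1.18 ± 0.12, adjusted p = 6.3e-04). Of 22 elastic fiber genes 5 were higher (Mfap5, Emilin2, Loxl1, Fbn1 and Efemp1) and none lower, with a median of 0.41. Loxl1, which crosslinks elastin, was at 600.3 and 509 CPM against 198 and 195 CPM in other fibroblasts (log2 fold change 1.49 ± 0.12, adjusted p = 2.1e-04). Of 37 BMP and TGF-beta genes, 5 were lower (Inhba, Sostdc1, Grem1, Gdf10 and Tgfbi) and 1 higher (Fstl1). Of 32 WNT genes, 6 were lower (Sfrp5, Rspo3, Rspo4, Wif1, Rspo1 and Dkk2) and 3 higher (Dact2, Sfrp2 and Wnt2), against 3 and 2 with at least 5% collagen UMIs.

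**Figure D5:**
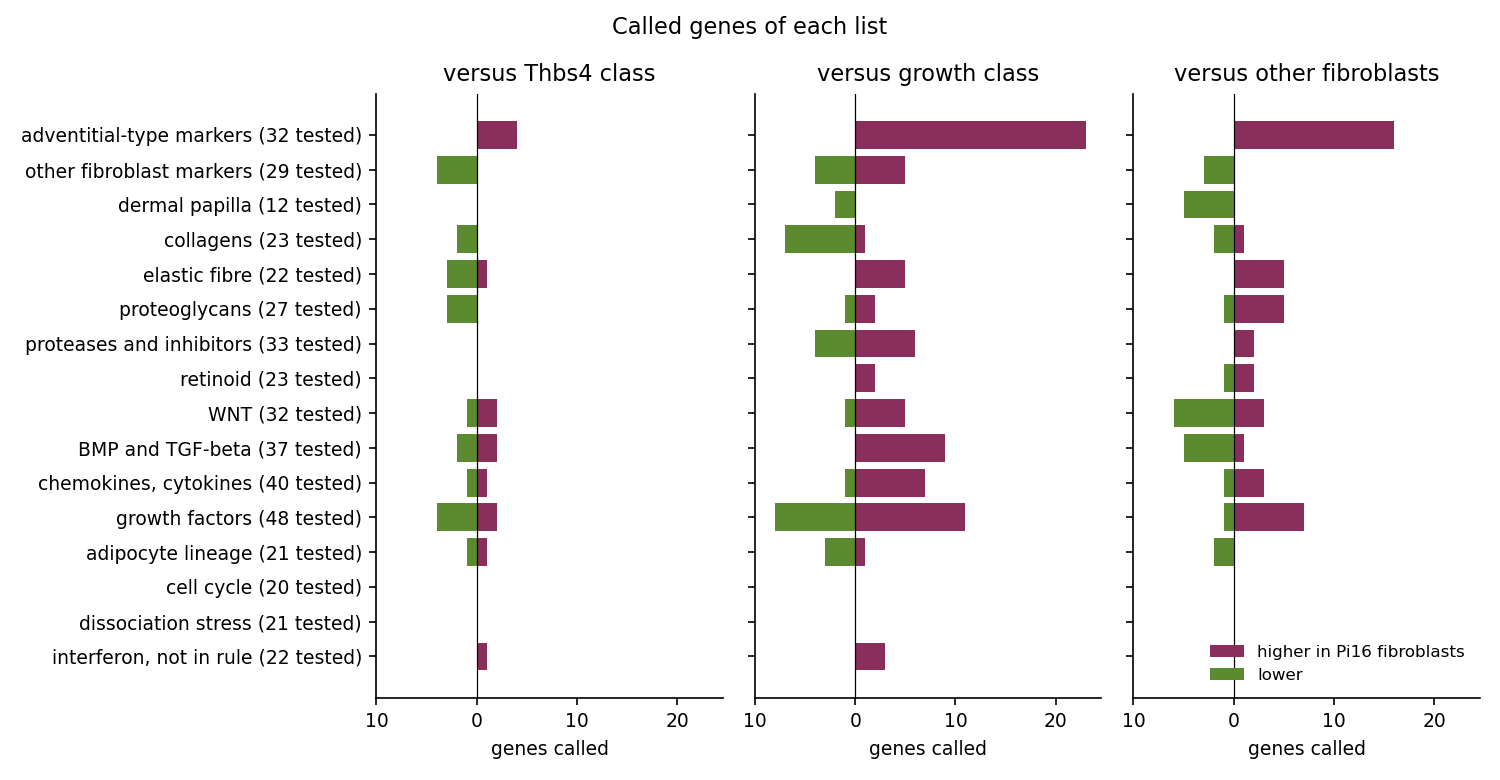
Number of genes of each list called higher (right of 0) or lower (left of 0) in Pi16 fibroblasts, by comparison, with the number tested in parentheses. The adventitial-type markers have 4, 23 and 16 genes higher and none lower, and cell cycle and dissociation stress genes have none called. In the same order, 0.478%, 2.48% and 0.856% of all genes were higher and 0.71%, 1.87% and 1.23% lower.

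Genes of single pathways can be followed across the classes. In the WNT list, Wnt2, a ligand, was at 86.5 and 40.2 CPM in Pi16 fibroblasts, 42.6 and 19.7 CPM in the Thbs4 class (log2 fold change 1.02 ± 0.17, adjusted p = 0.0079), 72.1 and 53.1 CPM in the growth class (log2 fold change -0.08 ± 0.16, adjusted p = 0.81) and 16.3 and 12.3 CPM in other fibroblasts (log2 fold change 2.06 ± 0.27, adjusted p = 0.002). It was therefore called against 2 of the 3 classes. With at least 5% collagen UMIs the call against the Thbs4 class was lost, at 0.57 on the log2 scale, and no WNT gene was higher than in that class. Sfrp1, a secreted WNT inhibitor, was lower than in the Thbs4 class, at 197 and 221 CPM against 623 and 588 CPM in the Thbs4 class (log2 fold change -1.54 ± 0.13, adjusted p = 3.2e-04), and near the growth class (log2 fold change 0.01 ± 0.13, adjusted p = 0.98). Sfrp4, of the same family, was higher than in the growth class, at 301 and 139 CPM against 103 and 53.7 CPM in the growth class (log2 fold change 1.46 ± 0.22, adjusted p = 0.002). Bmp7 was higher than in the Thbs4 class too (log2 fold change 1.63 ± 0.17, adjusted p = 0.001), while Bmp5 was lower, at 3.58 and 4.69 CPM against 28.2 and 51.6 CPM in the Thbs4 class (log2 fold change -3.18 ± 0.21, adjusted p = 4.1e-05). Ligands of one family thus went in both directions against the Thbs4 class.

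Of the 23 retinoid genes tested, those of vitamin A uptake, synthesis, breakdown and its receptors, 2 were higher than in the growth class (Aldh1a3 and Dhrs9), where 2.48% of all genes were. Against other fibroblasts 2 were higher (Dhrs9 and Rbp4) and 1 lower (Crabp2), where 0.856% and 1.23% of all genes were, and none was called against the Thbs4 class in edgeR, where 8 had an unadjusted p under 0.05 and DESeq2 called 1. Dhrs9, which oxidizes retinol, was at 42.8 and 28.6 CPM against 8.30 and 7.17 CPM in the growth class (log2 fold change 2.16 ± 0.19, adjusted p = 8.3e-05). Aldh1a1, another enzyme that makes retinoic acid, was at 86.1 and 140.2 CPM in Pi16 fibroblasts and 36.7 and 80.1 CPM in the growth class, at a log2 fold change that was just short of the limit of 1 with an adjusted p of 3.7e-04. Aldh1a2 was at 1.60 and 0.699 CPM, far below Aldh1a1 and Aldh1a3 in counts. The receptor gene Rarg was at 46.1 and 41.5 CPM in Pi16 fibroblasts and 34.9 and 33.2 CPM in the growth class, with no call (log2 fold change 0.37 ± 0.10, adjusted p = 0.028).

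Across the 10 sums of 5 classes and 2 mice, the genes most like Pi16 by Pearson's correlation of log2 CPM were Fbn1 (0.992), Akr1c14 (0.983), Lrrn4cl (0.970), Htra3 (0.969), Tmem43 (0.966), Sulf1 (0.963), Axl (0.963), Marcks (0.963), Poglut3 (0.962) and Pcsk6 (0.956). Pi16 is 0 by the rule in 4 of these sums, so the values mostly show which genes are low in the growth class and other fibroblasts together, and classes of 1 mouse share a library.

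Between the mice, members differed in more than number. Of the 22 interferon-induced genes outside the rule, 20 were higher in mouse 2, with a median of 1.57-fold and a range from 0.690 to 4.91. Bst2, which tethers viruses to the cell, was at 106 and 379 CPM, and Ifi27l2a at 612 and 1159.9 CPM. Mouse 1 was higher in Anxa3 (3.13-fold), Limch1 (2.20-fold), Smpd3 (2.11-fold) and Aldh1a3 (2.46-fold), whereas Dpp4 was similar, at 1.13-fold. Members of mouse 1 thus held more Pi16, Anxa3 and Limch1 and less interferon-induced mRNA. Some of these differences were shared by the Thbs4, growth, other and interferon classes. In that order, Anxa3 was 2.95-, 2.26-, 2.61- and 2.41-fold higher in mouse 1, and Bst2 3.01-, 2.77-, 3.63- and 4.59-fold higher in mouse 2. Limch1 was 2.24-fold and 1.975-fold higher in mouse 1 in the Thbs4 and interferon classes, but 0.946-fold and 0.741-fold in the growth class and other fibroblasts. With 1 library a mouse, animal and library cannot be told apart.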

How the data were processed

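Single-cell libraries of 2 mice were analysed from the deposited filtered matrices, which hold raw UMI counts per gene and cell. Per the labels and file headers, the authors made these counts with Cell Ranger (7.0.1 in the submitters' processing notes, 7.0.0 in the file header) on mm10, and the ambient RNA and doublet steps of the study are not part of the deposited counts. The matrices held 32285 features. Members, classes and gene lists were chosen with earlier results of these data known.

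Counts were summed per mouse and class, and the 10 sums of 5 classes were fitted with edgeR 4.0.16 (R 4.3.3; TMM, quasi-likelihood test, 4 residual degrees of freedom, Benjamini-Hochberg adjustment), with the mouse as a block because all classes of a mouse come from the same animal. Deviations of same-mouse sums correlated at 0.3 to 0.684. DESeq2 1.42.0 was an alternative. Scrublet, run through scanpy 1.11.5, marked doublets, which were kept. Clusters of members came from 2000 variable genes, 20 principal components, 30 neighbors and a Leiden resolution of 0.3, and their leading genes had at least 50 CPM. Tested on simulated data over 14755 genes, the fit recovered 100% of genes changed by 2 or 3 on the log2 scale in each comparison, with 0, 0 and 1 false calls against the Thbs4, growth and other classes. The simulated sums were drawn independently, with no difference between mice, and only better expressed genes were changed. Changes nearer the limit of 1 were not simulated. The simulation therefore cannot show how the fit handles the shared deviations of same-mouse sums in these data.

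Genes named were Pi16, Dpp4, Anxa3, Limch1 and Dcn, list members that were called or whose role is explained, and, per comparison, up to 10 called genes from either end of the ranking by fold change, provided the higher class averaged 50 CPM or more and the classes did not overlap. Some genes that this rule picks are not reported here. Kept cells had medians of 8869 and 10594 UMIs, and the tests rest on sums from 2 mice with 4 residual degrees of freedom. Intervals are exact (Clopper-Pearson, 95%) and cover counting error only, and separate cultures or animals beyond these 2 mice were not measured.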

Additional observations from a re-analysis of the deposited data

How the results depend on the processing

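The mouse block mattered most: without it 9, 67 and 4 genes were called against the Thbs4 class, the growth class and other fibroblasts, in place of 179, 656 and 314, and 166 of the 283 named-gene calls lost over all alternatives were lost there. Without a filter on low counts 443, 1044 and 859 genes were called, and at an adjusted p under 0.05 with no fold limit 558, 2063 and 1189. With at least 10 Pi16 UMIs, an alternative chosen after seeing the data, there were 311, 1043 and 496. Cells thinned to 3000 UMIs gave 285 against the Thbs4 class and collagen of at least 5% gave 106 there, while DESeq2 called 543 against other fibroblasts. Of the genes called against other fibroblasts, 41.1% were higher, against 28.5% in DESeq2, 53.1% with collagen of at least 5% and 25% without the block. Without the block the share higher was also 85.1% in place of 57.0% against the growth class, and 22.2% in place of 40.2% against the Thbs4 class. Without Scrublet doublets 207, 713 and 394 genes were called. The cause of these shifts was not tested.

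Of 2210 values for 185 gene comparisons under the alternatives, 1922 kept direction and call, 283 lost the call and 5 reversed. Ptn against the Thbs4 class turned to -0.29 (log2) with at least 10 Pi16 UMIs. With collagen of at least 5%, Corin turned to 0.28, Rspo3 to 1.17, Sostdc1 to 0.62 and Wif1 to 1.23 against other fibroblasts. In single mice, 0 of 370 values reversed, which was largely set in advance, since these genes were chosen by calls from the same 2 mice. Counts of calls could not be made without either mouse, since no residual degrees of freedom remained. The mean share of Pi16 fibroblasts was 14.5% ± 12.4 (SD, n = 2), from 3.92% to 17.7% under other cell limits, and 5.80% or 23.3% with either mouse alone. Depth limits genes under a few CPM in other fibroblasts, the shallowest class.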

Other observations

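Members of the mice also differed in genes outside the lists, picked after their values were seen and described with no test. The steroid receptor gene Pgr, for progesterone, was at 286 and 6.69 CPM in Pi16 fibroblasts. It was at 179 and 7.08 CPM in the Thbs4 class, 56.6 and 2.58 CPM in the growth class, 91.4 and 5.34 CPM in other fibroblasts and 273 and 12.2 CPM in the interferon class, so mouse 1 was higher in each class. Greb1, a cofactor of steroid receptors, was at 70.1 and 7.48 CPM in Pi16 fibroblasts and was also higher in mouse 1 in each class. Apoe was at 877 and 4070.2 CPM in Pi16 fibroblasts, higher in mouse 2, while in other fibroblasts it was at 4529.5 and 3408 CPM, in the opposite order.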
